A study of Mus musculus with 15 samples.

Results

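Hormone-producing (enteroendocrine) cells of the gut arise from crypt progenitors under a series of transcription factors, and 9 of these factors, Neurog3, Neurod1, Pax4, Nkx2-2, Insm1, Isl1, Pax6, Etv1 and Foxa2, are described here in the mouse ileum, where the small intestine ends. They were taken by name, as known factors of endocrine progenitors or of maturing endocrine cells, and all 9 were among the 37620 Ensembl gene identifiers of both deposited tables. Ileal RNA of adult mice makes up the 15 libraries; no label states that each library is a separate animal, so p-values measure the spread between libraries. Mutant animals were Rfx6f/f; Vilin-CreERT2: both alleles of Rfx6, a transcription factor of endocrine cells, were floxed, and the Villin promoter drove a Cre recombinase that tamoxifen activates. The promoter is one of the intestinal epithelium and is not active in the muscle or nerve layers. Controls were Rfx6f/f or Rfx6f/+ without the recombinase. The treatment protocol gives 10 mg of tamoxifen by gavage, repeated on alternate days of a 5-day course, for the adult mice as a whole. At 8 days after tamoxifen there were 3 controls, all Rfx6f/f, and 4 mutants, and at 3 months 4 controls, of which 2 were Rfx6f/f and 2 Rfx6f/+, and 4 mutants. No group carried the recombinase with intact Rfx6, so an effect of Cre and one of Rfx6 cannot be told apart. The labels give no sex and no age beyond adult.

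Endocrine differentiation in the intestine starts when a secretory progenitor of the crypt expresses Neurog3, a basic helix-loop-helix factor on which all enteroendocrine cells depend. Neurog3 is short-lived and is followed by Neurod1, Pax4, Nkx2-2 and Insm1, which act while the cell leaves the cycle and its hormone is chosen. Isl1 and Pax6 are later factors, kept in mature cells, and Pax6, Isl1 and Foxa2 are known to act on the proglucagon gene of L cells. Serotonin-producing enterochromaffin cells form a separate branch that uses Lmx1a.

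Library totals ran from 30.5 to 54.5 times 1000000 counts at 8 days and from 26.1 to 36.3 times 1000000 at 3 months. Values are raw counts or counts per 1000000 (CPM) scaled by TMM, a method that corrects library sizes for composition. A log2 ratio is the fitted log2 fold change, libraries labelled mutant over control. The targeted gene Rfx6 did not pass the test at 8 days and was higher, by 0.72 on the log2 scale, at 3 months (SE 0.17; adjusted p 0.0347, edgeR). Its counts ran from 50 to 84 in controls and from 44 to 105 in mutants at 8 days, and from 38 to 52 and from 65 to 106 at 3 months. Leaving out the Rfx6f/+ controls gave an adjusted p of 0.239 for the 3-month difference, and 6 of the 8 fits with 1 library left out did not pass, all but those without mutant replicate 2 or 4. Exon-level reads of Rfx6 were not analysed here. Total Rfx6 counts showed no fall under the mutant label, and the deletion itself was not checked here. Groups are therefore called the libraries labelled mutant and control. The enterocyte genes Fabp6, Slc10a2 and Guca2b were abundant in each library, with a summed level of 1021 to 3277 CPM. At 3 months that sum was lower in all libraries labelled mutant (1021 to 1738 CPM) than in all controls (2631 to 3277 CPM), and that of 4 goblet cell genes was higher (16830 to 18050 against 12300 to 14650 CPM). The enterocyte genes did not move as one: at 3 months Fabp6 fell (log2 ratio -1.44, adjusted p 0.00873 by edgeR), Guca2b rose (0.92, adjusted p 0.0167) and Slc10a2 did not pass (-0.55, adjusted p 0.188). The sum of 6 lymphocyte genes was 92.5 to 101.5 CPM in controls and 92.1 to 332.9 CPM under the mutant label at 8 days, and 214.2 to 349.5 and 102.4 to 232.2 CPM at 3 months, where Cd8a fell (-1.35, adjusted p 0.0426 by edgeR). The sum of 5 general epithelial genes (Epcam, Vil1, Cdh1, Krt8, Krt20) was lower in all libraries labelled mutant (10010 to 10960 CPM) than in all controls (11150 to 12280 CPM) at 8 days, and overlapped at 3 months (8595 to 10170 and 9836 to 11460 CPM). What these shifts contribute to the results on single factors was not tested. In bulk tissue, fewer cells of a type and less RNA per cell cannot be told apart.

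Of the 9 factors, Isl1 and Pax6 fell at 8 days and at 3 months, Pax4 and Nkx2-2 rose at 3 months, and the other 5 did not pass the test at either time. At 8 days 2 of 9 passed, both lower, where 0.0915% of all 17493 genes tested passed, 0.0343% higher and 0.0572% lower. A pass means an edgeR quasi-likelihood p under 0.05 after Benjamini-Hochberg adjustment over all genes. At 3 months 4 of 9 passed, 2 higher and 2 lower, where 9.28% of 17085 genes passed, 4.96% higher and 4.32% lower. The CPM of the groups did not overlap for 5 of 9 at 8 days, 1 higher (Pax4) and 4 lower (Neurod1, Isl1, Pax6, Etv1), against 7.63% of all genes, 3.84% higher and 3.8% lower. At 3 months it did not overlap for 5 of 9, 3 higher (Neurog3, Pax4, Nkx2-2) and 2 lower (Isl1, Pax6), against 19.2% of all genes, 9.7% higher and 9.53% lower. Before adjustment 6 of 9 had a p under 0.05 at each time, against 8.8% and 29.4% of all genes. Their median log2 ratio was -0.26 at 8 days and 0.32 at 3 months, against -0.0020 and 0.0077 over all genes tested. All 9 passed the filter on low counts, but Isl1 did so through the control libraries only, at both times, and Pax4 through the libraries labelled mutant only at 3 months. At 8 days 3 libraries had to reach the cutoff, and for Pax4 1 control and 4 libraries labelled mutant did. At 3 months 4 had to. For Pax6 4 controls and 1 library labelled mutant did, and for Nkx2-2 3 controls and 4 libraries labelled mutant. In each of these cases the group with the lower level would not have passed alone.

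The 250 bases before the annotated start are shown for Isl1, Pax6 and Nkx2-2, the factors with a called change for which a promoter was at hand, because RFX proteins bind the X-box and Neurog3 and Neurod1 bind E-boxes. Sequences are from RefSeq on GRCm38.p6, read on the gene's strand, and windows were found for 7 of the 9 factors. Capitals mark an X-box arm, spelled GTTGCC or GGCAAC on the other strand. This is only 1 of the 2 arms of the inverted repeat that RFX proteins bind and not the whole motif. Capitals also mark 1 spelling of the E-box, CAGATG or CATCTG on the other strand. Other E-box spellings were not searched and are not marked.
Isl1, chr13:116309689-116309938, minus strand: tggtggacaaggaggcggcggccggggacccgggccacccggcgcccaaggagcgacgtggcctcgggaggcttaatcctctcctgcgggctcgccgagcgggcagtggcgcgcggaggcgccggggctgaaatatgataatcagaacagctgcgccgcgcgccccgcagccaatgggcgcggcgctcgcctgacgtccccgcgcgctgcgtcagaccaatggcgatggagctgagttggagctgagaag
Pax6, chr2:105668646-105668895, plus strand: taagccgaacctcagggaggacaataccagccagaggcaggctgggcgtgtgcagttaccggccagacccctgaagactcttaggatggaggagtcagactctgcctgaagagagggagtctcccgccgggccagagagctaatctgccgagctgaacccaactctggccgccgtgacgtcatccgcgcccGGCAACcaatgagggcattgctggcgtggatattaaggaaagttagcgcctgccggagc
Nkx2-2, chr2:147186403-147186652, minus strand: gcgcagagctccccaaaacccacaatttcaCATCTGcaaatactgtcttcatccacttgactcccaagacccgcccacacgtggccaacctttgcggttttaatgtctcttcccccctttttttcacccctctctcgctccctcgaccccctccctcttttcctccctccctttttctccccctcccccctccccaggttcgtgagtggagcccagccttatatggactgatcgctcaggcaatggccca

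The first Pax6 window held 1 X-box arm, at positions -59 to -54 counted back from the start, with its letters on the minus strand. That motif was in 10.4% of 32851 promoter windows of the same length. Nkx2-2 held 1 match to the searched E-box spelling at positions -220 to -215, and 14.4% of windows held such a match. The Isl1 window held neither the X-box arm nor the searched E-box spelling. The 11 windows of the 7 factors include several starts for Pax6, Etv1 and Foxa2. Of these windows 1 had the X-box arm and 2 had the searched E-box spelling, the other match being at a second Etv1 start. These are matches of letters and not measured binding sites.

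Isl1 (ENSMUSG00000042258), a LIM homeodomain factor of mature endocrine cells, was the most reduced of the 9 factors at both times. The 8-day controls held 35, 51 and 71 counts, and the 8-day libraries labelled mutant held 2, 2, 0 and 2. The groups were far apart and no library labelled mutant exceeded 2 counts. Mean levels were 1.27 ± 0.131 CPM (SD, n = 3) and 0.0373 ± 0.0272 CPM (SD, n = 4), and the log2 ratio was -5.03 (SE 0.42, adjusted p 0.00342 by edgeR). As so few reads remained, the summed counts, 157 in controls and 6 under the mutant label, are the plainer measure: divided by the summed TMM-scaled library sizes they were 35.6-fold lower in the libraries labelled mutant, with a 95% exact interval of 16 to 98.5 that covers counting error only.

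Isl1 counts at 3 months were 40, 49, 49 and 45 (controls) and 3, 3, 5 and 8 (labelled mutant). The groups again did not overlap, and each library labelled mutant held some Isl1 reads. The level went from 1.60 ± 0.219 to 0.153 ± 0.0892 CPM (SD, n = 4 each), a log2 ratio of -3.37 (SE 0.31, adjusted p 0.00138 by edgeR). The summed counts were 183 and 19, and their ratio after the same depth correction was 10.6-fold (95% exact interval 6.596 to 18.0). The fall passed in all 15 fits that left out 1 library. The difference between the time points, 1.62 on the log2 scale (SE 0.59), did not pass (adjusted p 0.172 by edgeR).

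Pax6 (ENSMUSG00000027168), a paired-box factor that activates the proglucagon gene, fell less far and left reads in all libraries. Its 8-day counts were 75, 71 and 85 (controls) and 20, 28, 21 and 19 (labelled mutant). The groups did not overlap, with means of 1.97 ± 0.427 (SD, n = 3) and 0.535 ± 0.0692 CPM (SD, n = 4), a log2 ratio of -1.87 (SE 0.22, adjusted p 0.0207 by edgeR). This call was lost in 5 of 7 fits with a library left out: without control replicate 1 or 2, or without mutant replicate 2, 3 or 4, with adjusted p from 0.0551 to 0.126 and log2 ratios from -1.94 to -1.70.

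Pax6 counts at 3 months were 59, 40, 38 and 50 (controls) and 9, 10, 19 and 6 (labelled mutant). No library labelled mutant reached the lowest control. The level went from 1.63 ± 0.356 to 0.335 ± 0.124 CPM (SD, n = 4 each), a log2 ratio of -2.24 (SE 0.28, adjusted p 0.00606 by edgeR). With Rfx6f/f controls only it was -2.47 and the adjusted p was 0.0511. The difference between the times, -0.39 (SE 0.35), did not pass (adjusted p 0.637 by edgeR).

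**Figure D1:**
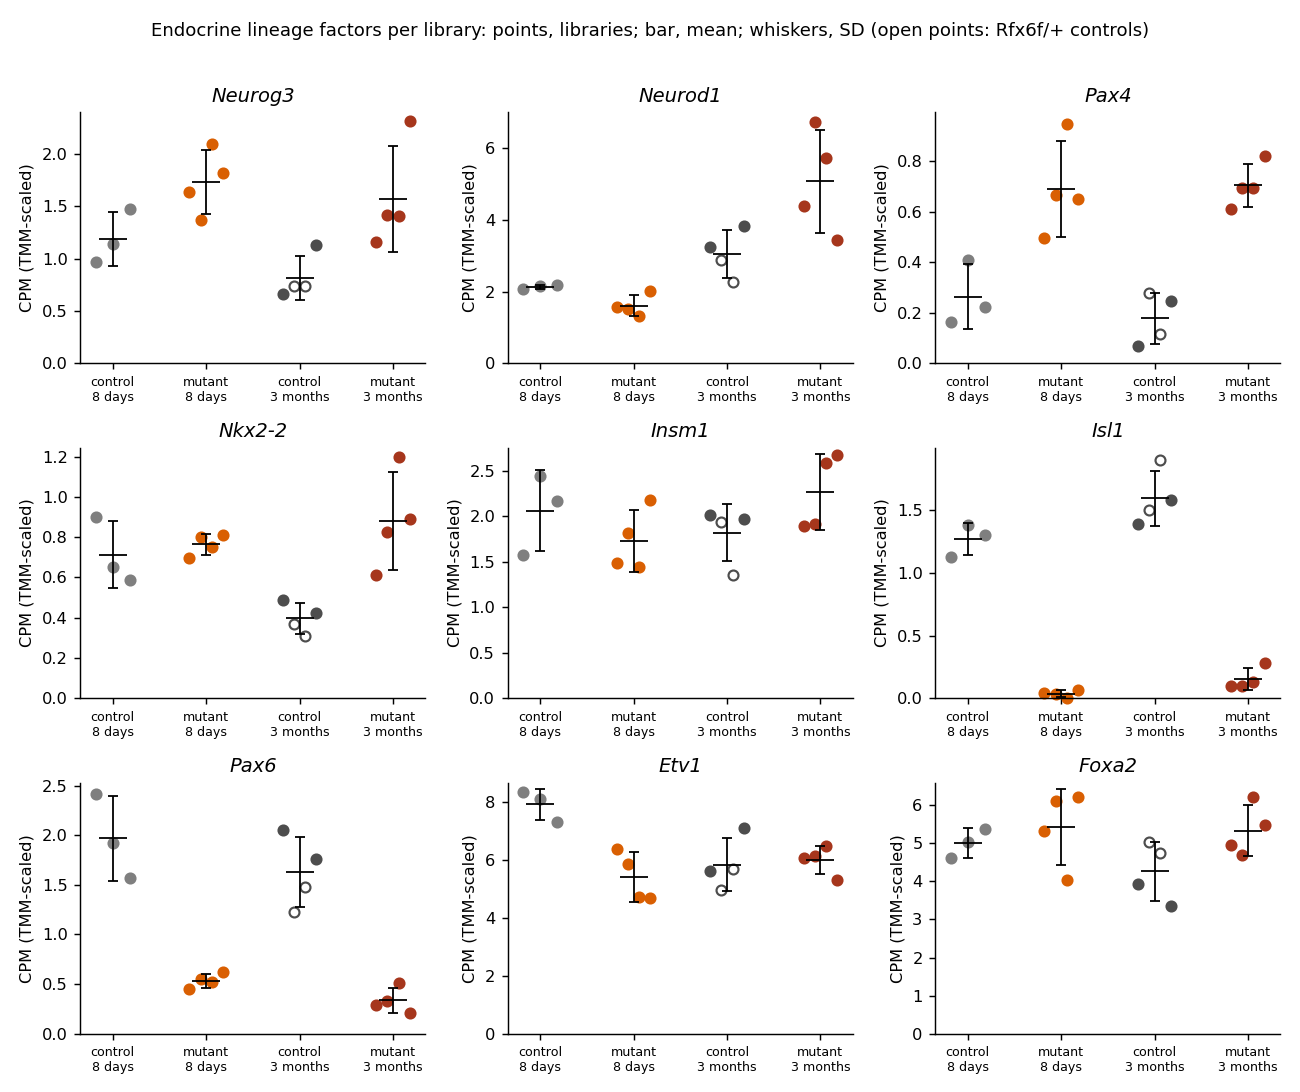
TMM-scaled counts per 1000000 (CPM, linear axes from 0) of the 9 factors in each library, with group means and SD; open points are the Rfx6f/+ controls of 3 months. Isl1 and Pax6 are lower in every library labelled mutant than in any control of the same time, and Pax4 is higher in every one.

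Pax4 (ENSMUSG00000029706), a paired-box repressor of endocrine progenitors, differed from the controls in the opposite direction to its relative Pax6 at both times, and passed at 3 months. Controls of 8 days held 5, 15 and 12 Pax4 counts against 22, 34, 38 and 20 under the mutant label. Its levels did not overlap between the groups (0.161 to 0.406 against 0.495 to 0.949 CPM), as was the case for 7.63% of all genes tested at 8 days. The log2 ratio of 1.38 (SE 0.37) did not pass (adjusted p 0.448 by edgeR). Controls of 3 months held 2, 9, 3 and 7 counts against 19, 21, 26 and 23 under the mutant label. Groups were again apart, as for 19.2% of genes tested at 3 months, and Pax4 rose from 0.177 ± 0.0998 to 0.704 ± 0.0860 CPM (SD, n = 4 each; log2 ratio 1.94, SE 0.35, adjusted p 0.0168 by edgeR). The call was lost without control replicate 3 (1.79, adjusted p 0.0555) and with Rfx6f/f controls only (2.13, adjusted p 0.134).

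Neurog3 (ENSMUSG00000044312), which marks endocrine progenitors, had means in the same direction as Pax4 but did not pass. Its 8-day counts were 30, 42 and 80 (controls) and 73, 70, 84 and 56 (labelled mutant). Those groups overlapped, at 0.966 to 1.47 against 1.37 to 2.097 CPM (log2 ratio 0.52, SE 0.22, adjusted p 0.540 by edgeR). Its 3-month counts were 19, 24, 19 and 32 (controls) and 36, 43, 53 and 65 (labelled mutant). Here the levels did not overlap, 0.661 to 1.13 against 1.16 to 2.31 CPM, with a log2 ratio of 0.94 (SE 0.27, adjusted p 0.0581 by edgeR). Across 18 alternatives its adjusted p lay between 0.0234 and 0.322, and 4 passed: DESeq2, a joint fit of both cohorts, the fit without control replicate 4 and that without control and mutant replicates 4. Part of Neurog3, 16.3% of its exon bases in GENCODE M21, overlaps Fam241b on the opposite strand, which had 318 to 768 counts per library, and the authors' strand setting is not given in the sources used here.

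Per Neurog3 count, which needs no scaling between libraries, the other factors stood as follows. Pax4 had 0.15 to 0.357 counts per Neurog3 count in the 8-day controls and 0.301 to 0.486 in the libraries labelled mutant, and 0.105 to 0.375 and 0.354 to 0.528 at 3 months, so both pairs of groups overlapped. Isl1 had 0.887 to 1.21 counts per Neurog3 count in 8-day controls against 0 to 0.0357, and 1.41 to 2.58 against 0.0698 to 0.123 at 3 months. Pax6 stood at 1.06 to 2.5 against 0.250 to 0.400 at 8 days and at 1.56 to 3.11 against 0.0923 to 0.358 at 3 months. Per Neurog3 count, both late factors were lower in each library labelled mutant than in any control of the same time. At 3 months this follows from the levels already given and adds no new result. There Neurog3 was higher, and Isl1 and Pax6 lower, in every library labelled mutant. The share of all genes whose ratio to Neurog3 did not overlap is not given here.

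**Figure D2:**
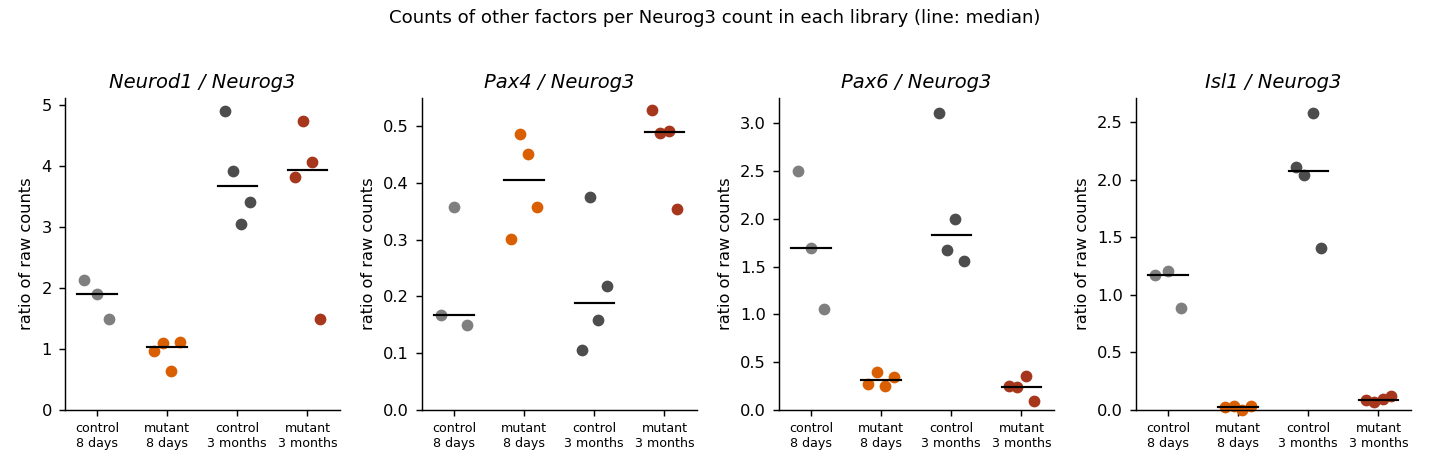
Raw counts of Neurod1, Pax4, Pax6 and Isl1 divided by those of Neurog3 in each library (points), with the median of each group as a line. The ratios of Isl1 and Pax6 do not overlap between labels at either time, that of Neurod1 is apart at 8 days only, and that of Pax4 overlaps at both.

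Neurod1 (ENSMUSG00000034701), the helix-loop-helix factor that follows Neurog3, had opposite differences at the time points, and neither passed. Neurod1 counts at 8 days were 64, 80 and 118 (controls) and 70, 77, 53 and 62 (labelled mutant). The controls lay within a narrow band of 2.06 to 2.171 CPM, and the libraries labelled mutant were all below it, at 1.32 to 2.02 CPM (log2 ratio -0.42, SE 0.18, adjusted p 0.547 by edgeR). Neurod1 counts at 3 months were 93, 94, 58 and 109 (controls) and 137, 204, 215 and 97 (labelled mutant). Those groups overlapped through mutant replicate 4, at 2.25 to 3.84 against 3.45 to 6.73 CPM (log2 ratio 0.73, SE 0.23, adjusted p 0.0785 by edgeR). Without that library it was 0.88 with an adjusted p of 0.0464, and it also passed by DESeq2 (adjusted p 0.0215) and in the joint fit of both cohorts (adjusted p 0.0346). The difference between the effects at both times was 1.13 (SE 0.30, adjusted p 0.0769 by edgeR) and ran from 0.97 to 1.29 over the 15 fits with a library left out. It passed by DESeq2 (adjusted p 0.0134) and without mutant replicate 4 of 3 months (adjusted p 0.0386). In GENCODE M21, 7.37% of the exon bases of Neurod1 overlap Cerkl on the same strand, a gene with 21 to 62 counts per library.

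Counts of Neurod1 per Neurog3 count stood at 1.48 to 2.13 in the 8-day controls and at 0.631 to 1.11 in the libraries labelled mutant, without overlap. At 3 months they stood at 3.05 to 4.89 and at 1.49 to 4.74, and overlapped.

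Nkx2-2 (ENSMUSG00000027434), a homeodomain factor needed for several endocrine fates, was at few counts. Controls of 8 days held 28, 24 and 32 counts against 31, 41, 30 and 25 under the mutant label, with overlapping levels (log2 ratio 0.12, SE 0.22, adjusted p 0.957 by edgeR). Controls of 3 months held 14, 12, 8 and 12 counts against 19, 25, 45 and 25 under the mutant label. All libraries labelled mutant were above all controls, and Nkx2-2 rose from 0.397 ± 0.0753 to 0.881 ± 0.244 CPM (SD, n = 4 each; log2 ratio 1.15, SE 0.26, adjusted p 0.0326 by edgeR). The call was lost in 6 of 8 fits with a library left out, those without any 1 control and those without mutant replicate 3 or 4 (adjusted p 0.0528 to 0.0914), and with Rfx6f/f controls only (0.95, adjusted p 0.247). Mutant replicate 3, which held 45 counts, also had the highest sum of 6 smooth muscle genes, 3058 CPM. In the other 3-month libraries that sum was 1549 to 2333 CPM. Its part in the Nkx2-2 result was not tested. In GENCODE M21, 9.67% of the exon bases of Nkx2-2 overlap the antisense gene Nkx2-2os, which had 0 or 1 count per library. The difference between the times was 1.01 (SE 0.33) and did not pass (adjusted p 0.132 by edgeR).

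Insm1 (ENSMUSG00000068154), a zinc-finger repressor of endocrine progenitors and young endocrine cells, overlapped between the labels at both times. Insm1 counts at 8 days were 49, 90 and 118 (controls) and 66, 93, 58 and 67 (labelled mutant), with no call (log2 ratio -0.26, SE 0.22, adjusted p 0.836 by edgeR). Insm1 counts at 3 months were 58, 63, 35 and 56 (controls) and 59, 58, 97 and 75 (labelled mutant), again with no call (log2 ratio 0.31, SE 0.19, adjusted p 0.299 by edgeR).

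Foxa2 (ENSMUSG00000037025), a forkhead factor also expressed in other epithelial cells, likewise overlapped, at 4.60 to 5.37 against 4.04 to 6.21 CPM at 8 days and 3.34 to 5.04 against 4.69 to 6.21 CPM at 3 months. Its log2 ratios were 0.11 (SE 0.17) and 0.32 (SE 0.16), with adjusted p of 0.939 and 0.208 by edgeR.

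Etv1 (ENSMUSG00000004151), an ETS factor of endocrine cells and of the interstitial cells of Cajal in the muscle layer, was lower in mean at 8 days without passing. Its 8-day counts were 259, 299 and 397 (controls) and 284, 300, 189 and 144 (labelled mutant). Corrected for depth, the groups were apart, at 7.30 to 8.34 against 4.68 to 6.39 CPM, with a log2 ratio of -0.55 (SE 0.15, adjusted p 0.460 by edgeR). The Cajal cell markers Kit and Ano1 had summed levels of 73.2 to 81.7 CPM in those controls and 67.8 to 89.2 CPM in those libraries labelled mutant, so they overlapped where Etv1 did not. At 3 months Etv1 stood at 4.98 to 7.11 and 5.30 to 6.48 CPM (log2 ratio 0.040, SE 0.13, adjusted p 0.867 by edgeR), and its sign changed without control replicate 2 and with Rfx6f/f controls only. Kit and Ano1 together stood at 48.4 to 60.9 and 61.4 to 89.4 CPM there, without overlap, and Ano1 passed (log2 ratio 0.61, adjusted p 0.0454 by edgeR). Their part in the Etv1 level was not tested.

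**Figure D3:**
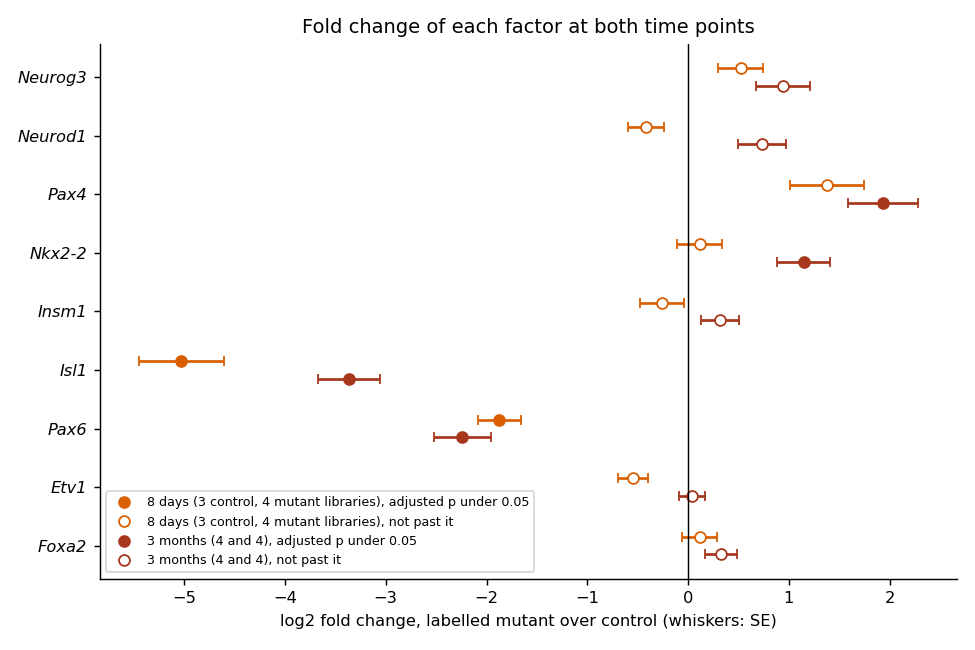
Log2 fold change of each factor, libraries labelled mutant over control, with its SE at 8 days and at 3 months; filled points passed at an adjusted p under 0.05 by edgeR. Isl1 (-5.03 and -3.37) and Pax6 (-1.87 and -2.24) lie to the left at both times, and Pax4 (1.94) and Nkx2-2 (1.15) are filled to the right at 3 months only.

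None of the 9 factors passed for the difference between the time points, where 0.785% of 17959 genes did, 0.379% higher and 0.406% lower (edgeR interaction test). Before adjustment 4 of 9 had a p under 0.05, against 16.6% of all genes, while limma-voom called 0 and DESeq2 called 1, Neurod1. For 8 of the 9, Pax6 being the exception, the 3-month effect was the more positive one, with differences of 0.19 to 1.62. Each time point has its own libraries and table, so time and set of libraries (cohort) cannot be told apart. Between the 2 Rfx6f/+ and the 2 Rfx6f/f controls of 3 months no factor passed by edgeR, by DESeq2 or by limma-voom, and 0 of 9 had an unadjusted edgeR p under 0.05, against 6.86% of all genes. The differences, Rfx6f/+ over Rfx6f/f, ran from -0.50 for Pax6 to 0.43 for Foxa2 on the log2 scale.

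Isl1 and some of the other factors are also expressed by enteric neurons and by pancreatic islets, so markers of both were set beside them. A list of 10 neuronal markers, none at 0, had summed levels of 68.5 to 94.7 CPM in controls and 66.2 to 84.6 CPM in libraries labelled mutant at 8 days, and of 61.6 to 64.7 and 61.9 to 89.8 CPM at 3 months. Both pairs of ranges overlapped. Of the 10 markers, Snap25 rose at 3 months (log2 ratio 0.70, adjusted p 0.0106 by edgeR), and the other 9 at 3 months and all 10 at 8 days did not pass. The part of neurons in the Isl1 level was not tested. Of the pancreatic genes, the acinar genes Cpa1 and Pnlip were uneven between libraries of 1 group: the 4-gene sum was 506.2 CPM in control replicate 4 of 3 months and 153.9 CPM in mutant replicate 4, against 9.38 to 72.2 CPM in the other 6. At 8 days it was 0.0195 to 74.4 CPM. The insulin genes Ins1 and Ins2 were at 0 in all 8-day libraries and at 5 counts or fewer at 3 months. Without control replicate 4 and mutant replicate 4, a choice made after seeing the data, Isl1 (-3.81, adjusted p 0.00304 by edgeR), Pax6 (-2.05, 0.0248) and Pax4 (2.03, 0.0447) passed at 3 months. Neurog3 (0.89, adjusted p 0.0495) and Neurod1 (1.0005, adjusted p 0.0440) then passed by edgeR, and Nkx2-2 did not (1.17, adjusted p 0.0805).

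Levels of different factors can be compared only per length, here as CPM per 1000 exon bases over the union of exons in GENCODE M21. Foxa2 had the highest mean in each of the 4 groups, at 2.11 ± 0.163 (SD, n = 3) in the 8-day controls and 1.80 ± 0.325 (SD, n = 4) in the 3-month controls. In the 8-day controls Neurod1, Neurog3, Insm1 and Etv1 followed at 0.782 to 0.595 and Isl1, Nkx2-2, Pax4 and Pax6 at 0.321 to 0.168, and within each of these runs every factor overlapped the next in its range over libraries. In the 3-month controls Neurod1 stood at 1.12 ± 0.243 (SD, n = 4), apart from both neighbours. Insm1, Neurog3, Etv1 and Isl1 followed at 0.587 to 0.403, and Pax6, Nkx2-2 and Pax4 at 0.139 to 0.123, again with neighbours overlapping within each run. In the libraries labelled mutant of 3 months Foxa2 and Neurod1 overlapped, and in replicate 2 Neurod1 (2.467) was above Foxa2 (1.977). In the libraries labelled mutant Isl1 and Pax6 had the lowest 2 means at both times, at 0.00941 and 0.0457 at 8 days and at 0.0387 and 0.0286 at 3 months. The order depends on the length used for genes with many annotated transcripts. With the longest transcript in place of all exons, Etv1 went from rank 5 to rank 2 and Pax6 from rank 9 to rank 7 in the 8-day controls.

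As a description over the 15 libraries, after each cohort's mean was taken off the log2 CPM, Isl1 and Pax6 went together (Pearson r 0.907), Neurog3 and Pax4 did (0.837), and Pax4 went against Pax6 (-0.896). The points share the labels, so these values restate the group differences in part. Among 14612 genes the nearest pattern to Isl1 was that of the peptide hormone genes Gip (r 0.979) and Ghrl (0.95), then Ybx3 (0.933). For Pax6 the nearest were Dbpht2 (0.949), Pkhd1 (0.935) and Abcc8 (0.933), a subunit of the ATP-sensitive potassium channel. The nearest genes to Neurog3 were Eno3 (0.933) and Fam210b (0.914), those to Pax4 Ttc3 (0.903), Stab2 (0.898) and Stk32a (0.883), and those to Nkx2-2 Loxl3 (0.935), Ldlrad4 (0.915) and Ereg (0.913). For Neurod1 (Actc1, Adm, Egfr), Insm1 (Tmem35a, Svbp, Tecr), Etv1 (Ahnak, Ptk2, Ap3b2) and Foxa2 (Soga3, Vegfc, Frzb) the highest r was between 0.826 and 0.870.

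The other known endocrine factors were taken as a list of 16, of which 12 could be tested at each time. At 3 months 4 of the 12 rose, none fell and 8 did not pass, where 9.28% of all genes passed and 4.96% were higher, with a median log2 ratio of 0.35 against 0.0077 over all genes. These were Lmx1a, a factor of enterochromaffin cells, Rfx6 itself, and Runx1t1 and St18, factors found in endocrine progenitors. Lmx1a had 42, 32, 23 and 52 counts in the 3-month controls against 161, 106, 170 and 137 under the mutant label, a clear separation (log2 ratio 1.80, SE 0.24, adjusted p 0.00707 by edgeR). It kept the call in all 8 fits with a library left out and lost it with Rfx6f/f controls only (1.45, adjusted p 0.0746). The log2 ratio was 0.76 for Runx1t1 and 0.64 for St18 (adjusted p 0.0273 and 0.0297 by edgeR). Runx1t1 lost its call in 5 of 8 fits with a library left out, all but those without control replicate 4 or mutant replicate 2 or 4, and St18 in 7 of 8, all but that without mutant replicate 2. Both lost it with Rfx6f/f controls only (adjusted p 0.205 and 0.153 by edgeR). At 8 days 0 of 12 passed by edgeR or limma-voom, where 0.0915% of all genes passed by edgeR. Of the 12, 2 had an unadjusted edgeR p under 0.05, against 8.8% of all genes. DESeq2, whose fit held all 16, called 1, Lmx1a, where it called 169 of 26268 genes.

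Upstream of Neurog3, the genes that set the secretory fate in the crypt were taken as a list of 12, with Atoh1, Dll1, Dll4, Gfi1, Spdef, Sox9, Hes1, Hes6, Notch1, Notch2, Mfng and Rbpj. At 8 days 0 of 12 passed by edgeR, DESeq2 or limma-voom, where 0.0915% of all genes passed by edgeR. An unadjusted edgeR p under 0.05 was found for 1 of 12, against 8.8% of all genes, with a median log2 ratio of 0.064 against -0.0020 over all genes. At 3 months 1 of 12 rose, Sox9, and none fell, a share near that of all genes (9.28% passed, 4.96% higher). Sox9, a factor of crypt progenitors and Paneth cells, was at 425, 370, 313 and 367 counts (controls) and 451, 644, 678 and 595 counts (labelled mutant). Its CPM ranges overlapped through mutant replicate 1 (log2 ratio 0.55, SE 0.14, adjusted p 0.0411 by edgeR), and the call was lost in 7 of 8 fits with a library left out, all but that without mutant replicate 1, and with Rfx6f/f controls only (adjusted p 0.276). The median of the list was 0.029. The other 11 ranged from -0.45 for Mfng to 0.13 for Dll4. Gfi1, a target of Atoh1, had no overlap between the groups and missed the threshold (-0.36, adjusted p 0.0778 by edgeR), and Atoh1, the factor that opens the secretory fate, stood at 0.033 (SE 0.095, adjusted p 0.845 by edgeR), between -0.057 and 0.071 with single libraries left out.

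**Figure D4:**
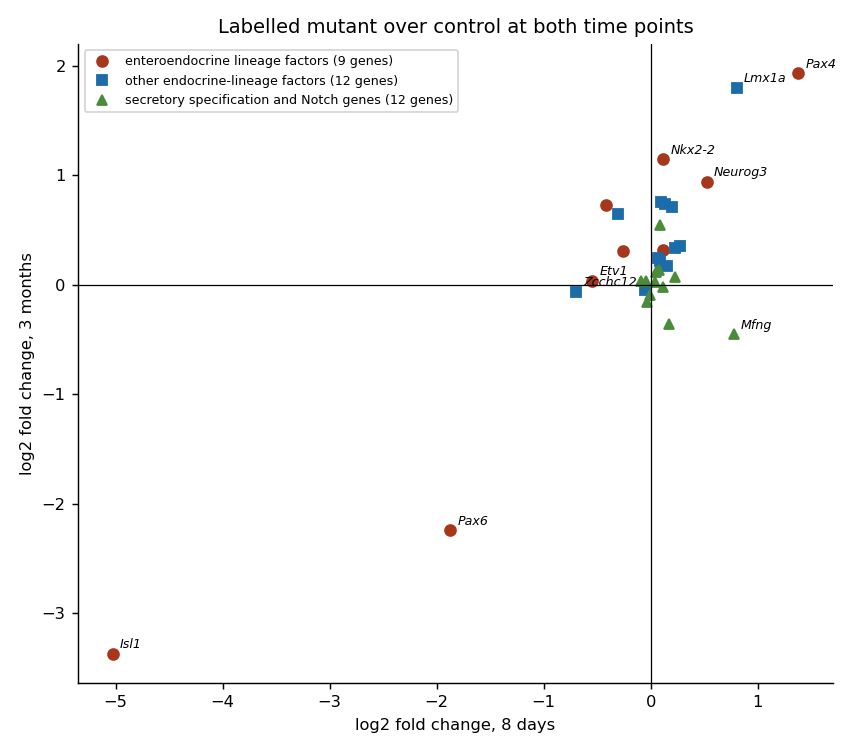
Log2 fold change of the libraries labelled mutant over control at 8 days (x axis) and 3 months (y axis) for the 9 lineage factors, 12 other endocrine factors and 12 secretory and Notch genes tested at both times; the cohorts share no sample. Isl1 and Pax6 lie at the lower left, Pax4 and Lmx1a at the upper right, and the secretory and Notch genes near 0, with Mfng (0.77 and -0.45) and Sox9 (0.086 and 0.55) farthest out.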

How the data were processed

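The authors deposited raw read counts per Ensembl gene, 1 table for each time point. Per the submitters' processing notes, the tools were bcl2fastq 2.17.1.14, Bowtie 1.0.0, TopHat2 2.0.10, Bowtie2 2.1.0 and HTSeq 0.6.1 and the build mm9; their roles, the annotation and the strand setting are not given in the sources used here. Per the labels' protocols, total RNA was depleted of ribosomal RNA and extracted by either of 2 methods, not assigned to samples, while the molecule label names polyadenylated RNA. Columns were matched to samples by title. Symbols (87.45% of identifiers) and lengths came from GENCODE M21 on GRCm38.

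Time points were tested apart in edgeR 4.0.16 (R 4.3.3; legacy quasi-likelihood fit, two-sided F test, TMM, filterByExpr with a minimum count of 10, Benjamini-Hochberg over all genes), and the difference between them as an interaction over 15 libraries. A positive log2 fold change means higher in libraries labelled mutant. Replicates were numbered in deposit order. The tools were tested on simulated data, where a larger share of the calls of DESeq2 than of those of edgeR was false in all 3 comparisons, so a pass by DESeq2 alone is the weaker one. Alternatives were DESeq2 1.42.0, limma 3.58.1 (voom), other scalings and filters, a joint fit, only the Rfx6f/f controls, and leaving out single libraries. The newer edgeR fit and the fit without control and mutant replicates 4 of 3 months were added after seeing the data. For the comparison of control genotypes, no alternative fit was planned beforehand. All 9 factors are named; other genes were named from the lists if called, or as up to 3 nearest patterns to each factor; some items are not reported here. Gfi1, Atoh1, the overlapping neighbours and the lowest or highest member of a list were named after their values were seen. The members and lists were chosen with earlier results of these data known.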

Additional observations from a re-analysis of the deposited data

Results flagged for a closer look

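In groups of 4 libraries, 42 checks over the 9 lineage factors and Rfx6, Lmx1a, St18, Runx1t1 and Sox9 asked whether 1 library stood far from the others of its group. This was so for 4, where chance gives about 1 in 20, or 2.1. Neurog3 was at 1.13 CPM in control replicate 4 of 3 months, against 0.661 to 0.738 in the other controls; without that library its log2 fold change was 1.135 and passed (adjusted p 0.044 by edgeR). Insm1 was at 1.36 CPM in control replicate 3 of 3 months, against 1.94 to 2.02. Rfx6 was at 3.40 CPM in mutant replicate 1 of 3 months, against 2.31 to 2.38. Lmx1a was at 2.47 CPM in mutant replicate 4 of 8 days, against 2.21 to 2.23.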

How the results depend on the processing

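Isl1 passed at both times in every alternative except the filter of 10 counts in every sample, which removed it. That filter left 7 of the 9 factors at 8 days, of which 1 passed (Pax6), and 5 at 3 months, of which 0 passed. With Rfx6f/f controls only, 1 factor passed at 3 months (Isl1). Each library left out in turn gave 1 to 2 factors at 8 days, 2 to 4 at 3 months and 0 to 1 for the difference between times. For that difference DESeq2 called 1 factor and so did the fit without control replicate 4 and mutant replicate 4 of 3 months, Neurod1 each time. At 3 months DESeq2 and the joint fit of both time points each called 6 of the 9 factors, adding Neurog3 and Neurod1. Over all genes DESeq2 called 169 at 8 days against 16, 2948 at 3 months against 1586 and 1024 for the difference against 141. It also called 1 other endocrine factor at 8 days (Lmx1a) and 2 secretory or Notch genes at 3 months (Sox9, Gfi1). Among the 9 factors, Rfx6, Lmx1a, St18, Runx1t1 and Sox9, signs of the mutant effect or of its difference between times reversed in 4 values: Nkx2-2 at 8 days without control replicate 3 (-0.016; 0.30 at the other end, without control replicate 1), Runx1t1 at 8 days without control replicate 2 (-0.0072; 0.26 without control replicate 1), and Etv1 at 3 months without control replicate 2 (-0.031; 0.15 without control replicate 4) and with Rfx6f/f controls only (-0.084). Between control genotypes, where no factor passed, fits with a library left out ran from -0.59 to 0.17 for Neurog3 and from -0.42 to 1.5 for Pax4. Other listed genes with values close to 0 changed sign too, such as Atoh1. Depth limits Pax4 and Nkx2-2, which had at most 45 counts in any library. Apart from the genes and libraries that an alternative removed, the cause of these changes was not tested. No paired analysis was possible because the labels give no pairs.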

Other observations

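Control levels of Nkx2-2, Neurod1, Isl1 and Etv1 did not overlap between the cohorts, and those of Neurog3, Pax4, Insm1, Pax6 and Foxa2 did. The cohorts were not tested against each other because time and cohort cannot be told apart. CPM were also scaled within each time point. Nkx2-2 stood at 0.589 to 0.901 CPM in the 8-day controls and at 0.311 to 0.487 in the 3-month controls, and Neurod1 at 2.06 to 2.171 and 2.25 to 3.84 CPM. Relative to Insm1, Nkx2-2 had 0.190 to 0.241 counts per Insm1 count in the 3-month controls and 0.322 to 0.464 in the libraries labelled mutant, without overlap, while the ranges at 8 days, 0.267 to 0.571 and 0.373 to 0.517, overlapped.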
